A study of Homo sapiens with 4 samples.

Results

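MALAT1 and NEAT1 are long noncoding RNAs that stay in the nucleus and are transcribed from neighbouring genes on chromosome 11. MALAT1 was picked on its large measured read share in these libraries, and NEAT1 was described beside it. Their read shares are therefore given as a description and carry no test. They are 2 of the 15016 named genes with a peak. They held 4 of the 48104 peaks called with lactate, 3 of the 95785 peaks called with ddH2O, and 4 of the 116484 merged peaks.

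The RNA bound by NSUN2 was recovered from wild-type PANC-1 cells, an established line of human pancreatic ductal adenocarcinoma, with an antibody against NSUN2 and was then sequenced (RIP-seq). The cells had received sodium lactate at 30 mM, or ddH2O as the vehicle, over 24 h. Each condition had 1 immunoprecipitation (IP) library and 1 input library made from the lysate before the pull-down, 4 libraries in all. No difference below has a replicate check, and every interval covers counting error only. A library made with a control antibody was not analysed here.

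All 4 ductal and epithelial markers looked at (KRT7, KRT8, KRT18 and KRT19) had a merged peak, with 4437 lactate and 12394 ddH2O reads in the densest window of each gene, led by KRT18. VIM, a mesenchymal gene known to be active in PANC-1, had 615 and 1486 reads. Of 8 markers of other cell types, 3 had a merged peak, with 66 and 82 reads in all, led by COL1A1, and CD14, INS, PRSS1, ALB and PECAM1 had none. These are reads of the IP libraries and not expression levels.

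NSUN2 is a methyltransferase that places 5-methylcytosine (m5C) on transfer RNAs and on a range of other RNAs. MALAT1 is among the most abundant nuclear transcripts and gathers in nuclear speckles, where splicing factors are stored. NEAT1 is the architectural RNA of paraspeckles, and its short and long isoforms share their start while the long isoform alone carries the stretches that build the body.

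NEAT1 (ENSG00000245532) had peaks only in the part of the gene that belongs to the long isoform. The gene spans 22743 bases on chromosome 11, from 65422798 to 65445540 (GRCh38, plus strand). With lactate, peaks lay from 65432615 to 65433123, from 65438901 to 65440869 and from 65444055 to 65444397. With ddH2O, the lists held peaks from 65432664 to 65432988 and from 65439177 to 65440834. Each lay in an exon by the authors' annotation. The first began 9818 bases from the start of the gene with lactate and 9867 bases from it with ddH2O. The first 4 kb, which hold the short isoform, had 0 peaks in either list. With 3 lactate and 2 ddH2O peaks on a gene of 22743 bases, nothing is read from this 0. Reads there were not counted, since windows lie at merged peaks only. The middle peak was long, at 1969 bases with lactate and 1658 bases with ddH2O, which made it number 12 and number 105 by length in their lists. The median peak was 225 and 241 bases long. The last peak, 343 bases long, was called with lactate alone, as were 43.6% of all lactate peaks (20972 of 48104 had no base in a ddH2O peak). It ended 61 bases before MIR612, a microRNA gene inside NEAT1.

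MALAT1 (ENSG00000251562) had 1 peak in each list, near the start of the transcript. The gene spans 8779 bases from 65497738 to 65506516 (plus strand). The lactate peak lay from 65499535 to 65499832, 298 bases in all, and the ddH2O peak from 65499600 to 65499810, 211 bases in all, in both cases in an exon. Counted from the start of the gene, they covered bases 1798 to 2095 and bases 1863 to 2073. Their summits, the points of highest pileup, were 5 bases apart. The rest of the transcript had 0 peaks, so peaks covered 3.39% of the gene with lactate and 2.40% with ddH2O. For NEAT1 these shares were 12.4% (2821 bases) and 8.72% (1983 bases). Every base in a ddH2O peak of either gene was also in a lactate peak, and these shared bases made up 70.8% of the lactate peak of MALAT1 and 70.3% of the lactate peak bases of NEAT1. Over the whole lists, shared bases made up 54.5% of the bases in lactate peaks and 25.1% of those in ddH2O peaks. TALAM1, an antisense RNA of MALAT1, overlaps the whole MALAT1 peak. The library kit does not mark strand, so their reads cannot be told apart.

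**Figure D1:**
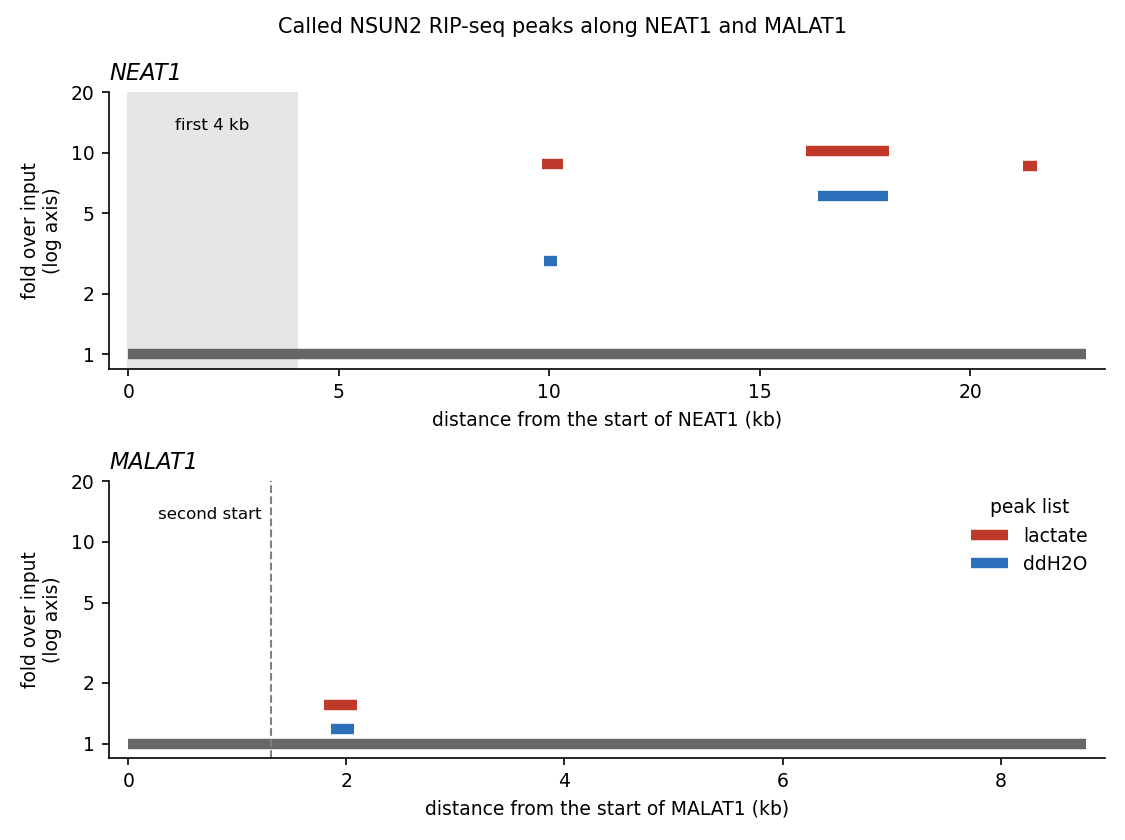
Called peaks along NEAT1 (top) and MALAT1 (bottom) by distance from the gene start in kb, with the fold over input on a log axis, lactate peaks in red and ddH2O peaks in blue. The NEAT1 peaks begin 9818 bases or more from the start, beyond the shaded first 4 kb, and the MALAT1 peak lies just after the second start (dashed line).

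RefSeq (GRCh38.p14) gives MALAT1 a second start, at base 65499045. It lies inside the window of 2000 bases in which reads were counted, 490 bases before the lactate peak, which covers bases 491 to 788 counted from it. The sequence around this start is shown because its reads enter the MALAT1 window, and 1 of the 2 genes matched the promoter table. It runs on the plus strand of chr11:65498795-65499094, with the 250 bases before the start in lower case and the 50 transcribed bases in capitals.

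MALAT1 second start: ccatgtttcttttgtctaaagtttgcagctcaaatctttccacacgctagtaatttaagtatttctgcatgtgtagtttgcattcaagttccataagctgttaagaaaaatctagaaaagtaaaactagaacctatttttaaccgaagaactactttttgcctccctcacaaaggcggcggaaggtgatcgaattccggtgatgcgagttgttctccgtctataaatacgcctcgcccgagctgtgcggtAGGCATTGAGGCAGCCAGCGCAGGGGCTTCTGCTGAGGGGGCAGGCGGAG

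The motif CNGGG, a sequence known at many NSUN2 sites, was searched on both strands. It occurred 1 time on the plus strand, within the 50 transcribed bases, and 0 times on the minus strand. Of all 35116 promoter entries of this length, 93.0% held it on either strand, and 34.1% held it on the plus strand of their 50 transcribed bases. No sequence of the called peaks was analysed here.

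The fold of a peak over input, together with its −log10 p, gave back the IP pileup (reads over the summit) and the local input level. That level is the peak caller's estimate of input reads over a stretch of the same length, and it need not be whole. At the MALAT1 summit the lactate IP held 92945 reads (92943 to 92952 within the rounding of the deposited values) and the lactate input 46725. The ddH2O IP held 60286 reads (60283 to 60288) and the ddH2O input 62056. MALAT1 thus had deep pileups in all 4 libraries, the inputs included. The input level and the IP pileup were each number 2 of their lists, after the mitochondrial 16S rRNA gene MT-RNR2. Next in input level came ATF4, a stress response transcription factor, with 1378 reads for lactate, and RPL35, a ribosomal protein gene, with 3534 for ddH2O.

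At the long NEAT1 peak the lactate IP held 220 reads (95% Poisson interval 192 to 251) and its input 16, and the ddH2O IP held 108 reads (88.6 to 130.4) and its input 20.6. At the peak nearest the start of the gene, the lactate IP held 88 reads (70.6 to 108.4) and its input 7, and the ddH2O IP 40 reads (28.6 to 54.5) and its input 16. The intervals of the IP libraries did not overlap at the long peak, where the summits lay 401 bases apart, and did not overlap at the peak nearest the start. They cover counting error of single libraries, and the share of all peak pairs that do the same is not given here. Nothing particular to NEAT1 is therefore read from them. At the peak called with lactate alone, the lactate IP held 23 reads (14.6 to 34.5) over an input level of 1.22.

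**Figure D2:**
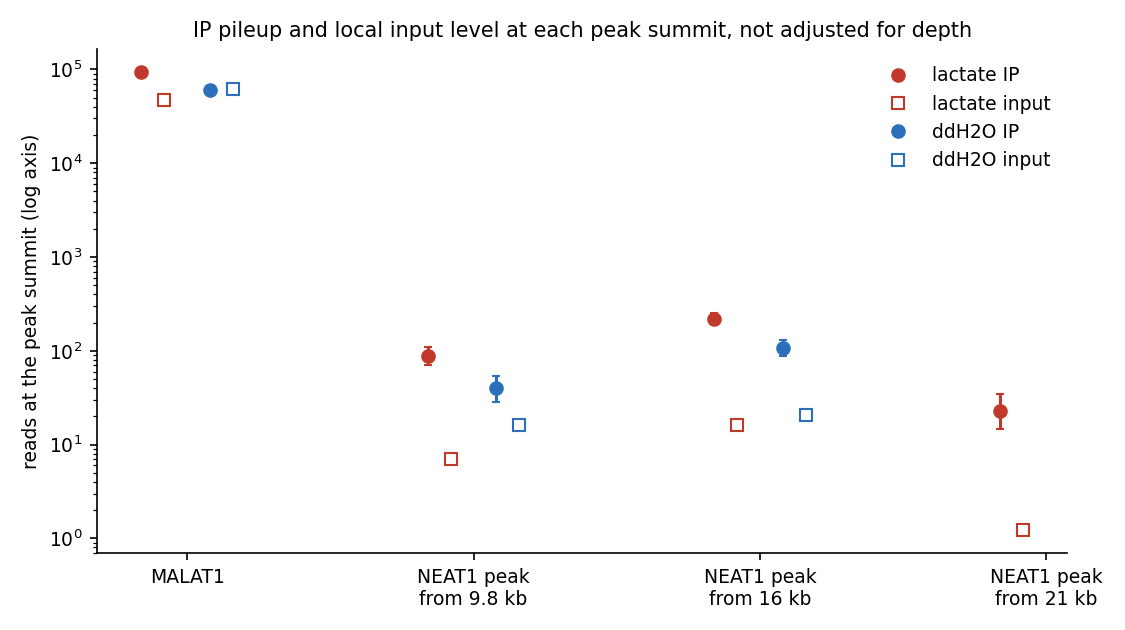
Reads at the summit of each peak on a log axis, filled circles for IP libraries with 95% Poisson intervals and open squares for the local input level, lactate in red and ddH2O in blue. MALAT1 stands at 46725 to 92945 reads in all 4 libraries, while no NEAT1 value exceeds 220.

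The peak caller's background levels gave the depths of the libraries relative to the ddH2O IP, at 1.02 for the lactate IP, 0.797 for the lactate input and 1.22 for the ddH2O input. The IP libraries were thus close in depth and the inputs were not. This depth includes MT-RNR2, and outside it the windows held 2074762 lactate IP reads and 3626694 ddH2O IP reads. Per depth, the MALAT1 pileup was 1.52-fold higher in the lactate IP than in the ddH2O IP, and the MALAT1 input level was 1.15-fold higher in the lactate input than in the ddH2O input. At the long NEAT1 peak these ratios were 2.0 for the IP and 1.19 for the input, with summits 401 bases apart. At the peak nearest the start they were 2.16 for the IP and 0.671 for the input. MT-RNR2 had ratios of 1.28 and 1.31.

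These ratios were set beside those of all overlapping lactate and ddH2O peaks of like ddH2O input level, a comparison chosen after seeing the data. Of the 14 pairs with an input level of 1000 or more, MALAT1 and MT-RNR2 were the 2 with an IP ratio above 1, and also the 2 with an input ratio above 1. The medians of these pairs were 0.458 for the IP and 0.640 for the input, so MALAT1 stood above them in both kinds of library. For the long NEAT1 peak, the 1831 pairs from 20 to below 50 had medians of 0.522 and 0.625, with 57 IP ratios and 258 input ratios above 1. For the peak nearest the start, the 2008 pairs from 10 to below 20 had medians of 0.560 and 0.565, with 157 IP ratios and 348 input ratios above 1. Its IP ratio of 2.16 thus stood far above the median and its input ratio of 0.671 near it. That input ratio rests on low input levels, 7 with lactate and 16 with ddH2O, and has no counting interval.

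The fold over input is taken by the peak caller after the deeper library of each pair is scaled down to the other, so it is not the ratio of the reads given above. That of MALAT1 was low, at 1.56 with lactate and 1.19 with ddH2O, and 191 of the 48104 lactate peaks and 25 of the 95785 ddH2O peaks had a lower one. The median peak had a fold of 3.24 and 3.03. The −log10 p of MALAT1, which grows with depth at a given fold, was nevertheless number 2 in the lactate list (2709) and number 129 in the ddH2O list (368). NEAT1 had folds of 8.75, 10.2 and 8.57 with lactate, from its start to its end, and of 2.91 and 6.11 with ddH2O. The lactate folds lay above 95.1%, 96.8% and 94.8% of the peaks of their list or level with them, and the ddH2O folds above 43.0% and 87.3%.

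Median folds were lower where the input was deep, so MALAT1 and NEAT1 were also set beside peaks of like input level, a comparison chosen after seeing the data. Of the 1401 lactate peaks with an input level from 10 to below 20, 39 had a higher fold than the long NEAT1 peak. For the lactate peak nearest the start, 142 of 1983 peaks of like input had a higher fold, and for the last lactate peak 513 of 5329. Of the 2741 ddH2O peaks from 20 to below 50, 503 had a higher fold than its ddH2O counterpart. The ddH2O peak of NEAT1 nearest its start was exceeded by 1977 of 3046 peaks. MALAT1 had few peaks of like input beside it, since 3 lactate peaks and 25 ddH2O peaks had an input level of 1000 or more. The 3 were MT-RNR2, MALAT1 and ATF4, with folds of 3.28, 1.56 and 1.29, and 19 of the 25 ddH2O peaks had a higher fold than MALAT1.

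Around the summit of each merged peak, the authors' MAnorm run counted IP reads in a window of 2000 bases. Of the lactate IP, 129762 reads fell in the MALAT1 window, and of the ddH2O IP, 89873. That is 1.33% (95% Wilson interval 1.32 to 1.34%) of the 9756081 lactate reads over all windows and 0.941% (0.935 to 0.947%) of the 9553814 ddH2O reads. MT-RNR2 took most of both sums, and without it the MALAT1 share was 6.25% for lactate (6.22 to 6.29%) and 2.48% for ddH2O (2.46 to 2.49%). The MALAT1 window ranked number 2 by reads in each IP.

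From the start of the gene to its end, the NEAT1 windows held 117, 679 and 29 lactate reads, against 51, 466 and 8 ddH2O reads. Their sums of 825 and 525 reads made up 0.00846% (0.00790 to 0.00905%) and 0.00550% (0.00504 to 0.00599%) of all window reads. None of the 4 windows of MALAT1 and NEAT1 overlapped another of them. The MALAT1 window held 191 times as many reads as the densest NEAT1 window with lactate and 193 times as many with ddH2O. In the deposited densities, which MAnorm rescaled, that ratio was 297 with lactate and 124 with ddH2O.

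The deposited density of the MALAT1 window was 151574 with lactate and 19235 with ddH2O, a log2 ratio of 2.98. The NEAT1 windows had densities of 74.9, 510 and 16.7 with lactate and 20.5, 156 and 4.04 with ddH2O. Their log2 ratios were 1.87, 1.71 and 2.05. All 4 windows were thus more than 2-fold higher with lactate on this scale, as were 13.9% of all merged windows. The last NEAT1 window lies at a peak called with lactate alone, so its high ratio was in part given. MAnorm reached these ratios by adding an amount that grew with density, 2.45 to the log2 ratio of the MALAT1 window and 0.69, 1.17 and 0.31 to those of NEAT1, against 0.05 at the median density of all windows. The MALAT1 amount lies on a line extended far past other windows, since the highest mean log2 density outside MT-RNR2 and MALAT1 was 11.7 and that of MALAT1 was 15.7.

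Reads with no rescaling gave a smaller difference. The MALAT1 window held 1.44 times as many lactate reads as ddH2O reads (95% exact interval 1.43 to 1.46). For NEAT1 the ratios were 2.29 (1.64 to 3.25), 1.46 (1.29 to 1.64) and 3.62 (1.62 to 9.18). Scaling by the depth of the IP libraries, a choice added after seeing the data, gave log2 ratios of 0.51 for MALAT1 and 1.16, 0.52 and 1.71 for NEAT1. On this scale 2 of the 3 NEAT1 windows and not the MALAT1 window passed 2-fold, as did 11.9% of all windows. The 2 include the window of the peak called with lactate alone (1.71), whose high ratio was in part given. Scaling by the sums over all windows gave the same count for each gene, again with 11.9% of all windows past 2-fold. With the sums outside MT-RNR2 and MALAT1 taken as equal, which were 1945000 lactate reads and 3536821 ddH2O reads, the log2 ratios were 1.39 for MALAT1 and 2.04, 1.40 and 2.60 for NEAT1, all past 2-fold, as were 24.5% of all windows. The windows of both genes were higher with lactate under every scaling tried, and the size of the difference depended on the scaling.

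**Figure D3:**
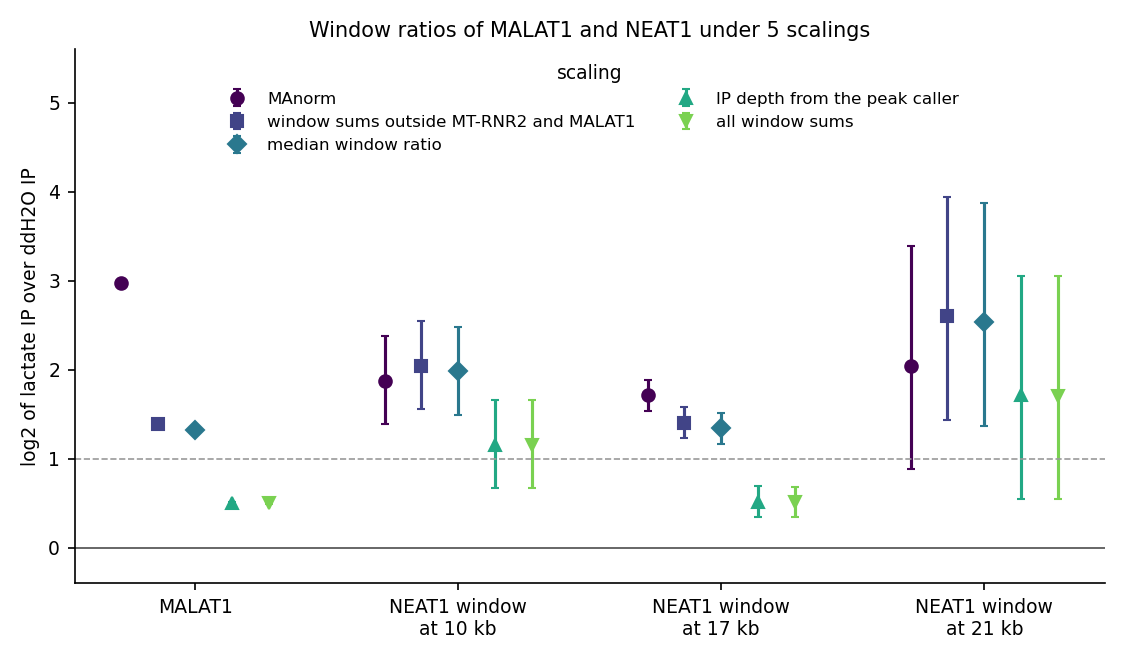
Log2 ratio of lactate IP over ddH2O IP for the MALAT1 window and the 3 NEAT1 windows under 5 scalings, with 95% counting intervals from the reads (smaller than the symbols for MALAT1). All lie above 0, and MALAT1 moves from 2.98 under MAnorm to 0.51 per IP depth, below the dashed line of a 2-fold difference.

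The distance between MALAT1 and NEAT1 depended on the scaling too. For the densest window of each gene, MAnorm put MALAT1 at 2.98 and NEAT1 at 1.71, and the depth of the IP libraries put them at 0.51 and 0.52, closer than the counting interval of NEAT1 is wide. Over all 15016 genes the median log2 ratio of the densest window was -0.29 under MAnorm and -0.89 per IP depth. Relative to these medians MALAT1 stood 3.27 and 1.40 higher, and NEAT1 2.01 and 1.41 higher. The share of genes past 2-fold was 7.74% higher and 25.6% lower with lactate under MAnorm, and 5.97% higher and 45.2% lower per IP depth.

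Windows of like density to those of NEAT1, a comparison chosen after seeing the data, had fewer lactate than ddH2O reads at the median, while each NEAT1 window had more. Of the 393 merged windows with a mean log2 density from 8 to below 9, the median unscaled log2 ratio was -1.01, and the window of the long NEAT1 peak stood at 0.54. In that range 1 window was higher, that of AHNAK2, which encodes a large scaffold protein. The NEAT1 window nearest the start stood at 1.18, where the 3461 windows with a density from 5 to below 6 had a median of -0.89, and 1 of them, at TRIM66, was higher. For the window of the lactate-only peak, at 1.74, the median of 11130 windows was -0.58 and 24 were higher. That window was chosen by its call with lactate, so a high ratio there was in part given. The MALAT1 window, at 0.53, had no other window in its density range.

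Among the 799 other genes whose densest window was in the top 1 percent by density, the nearest to MALAT1 in log2 ratio under MAnorm was MT-RNR2 at 3.83, then AHNAK2 at 1.73, NEAT1 at 1.71, ZNF780B at 1.40 and PVT1 at 1.38. For NEAT1 they were AHNAK2, ZNF780B, PVT1, PNISR at 1.26 and MYADM at 1.26. Per IP depth, NEAT1 and MALAT1 were each other's nearest gene, with log2 ratios 0.01 apart, followed for both by AHNAK2 at 0.56, MT-RNR2 at 0.35, CSNK1E at 0.07 and PVT1 at 0.00. This likeness rests on 2 IP libraries, and PVT1, a long noncoding RNA, had 1183 lactate and 1160 ddH2O reads.

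By number of peaks, MALAT1 stood at the median of the named long noncoding RNA genes, 1 peak in each list, and NEAT1 stood above it. Of the 774 such named genes in the lactate list, NEAT1 with 3 peaks ranked number 116 and MALAT1 with 1 ranked number 324, level with other genes of the same count. The genes with the most lactate peaks were PVT1 (46), LINC00511 (43), MIR4435-2HG (33), FTX (32) and LINC01572 (28). In the ddH2O list of 1361 genes, NEAT1 with 2 peaks ranked number 396 and MALAT1 with 1 ranked number 633. The leaders there were LINC00511 (72), PVT1 (66), MIR4435-2HG (64), LINC01572 (57) and SLC38A4-AS1 (52). NEAT1 had more peaks with lactate than with ddH2O, as did 12.5% of the 1496 long noncoding RNA genes named in either list, while 72.9% of them had fewer.

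Genes related to MALAT1 and NEAT1 were described by list, beside all genes, whose medians were -0.29 under MAnorm and -0.89 per IP depth, with 7.74% and 5.97% more than 2-fold higher and 25.6% and 45.2% lower. Per IP depth, the medians and the shares lower of the other long noncoding RNAs, the paraspeckle proteins and the neighbours were near those of all genes, so nothing particular to these lists is read from their counts. Of 17 other long noncoding RNAs, 15 had a merged peak, and their densest windows had a median log2 ratio of -0.02 under MAnorm, with 3 more than 2-fold higher and 0 lower, and of -0.74 per IP depth, with 2 higher and 7 lower. TUG1 had 456 lactate and 1135 ddH2O reads and OIP5-AS1 481 and 790. The lowest ratio under MAnorm was that of HOTAIRM1 (50 and 141 reads, -0.77). The highest was that of KCNQ1OT1, a nuclear RNA of an imprinted locus, with 54 and 16 reads and a log2 ratio of 2.15 (1.67 per IP depth). MIR17HG and MIAT had no peak.

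Among mRNAs of paraspeckle proteins, which assemble on NEAT1, 0 had a ratio above NEAT1 under MAnorm. Per IP depth 3 did, CPSF6 (28 lactate and 17 ddH2O reads), NONO (6 and 3) and NUDT21. NEAT1 was past 2-fold under MAnorm, as were 7.74% of all genes, so nothing particular to this list is read from the 0. Of 17 genes, 15 had a merged peak, with a median of -0.22 under MAnorm (2 higher, 3 lower) and -0.92 per IP depth (1 higher, 7 lower). DAZAP1 had 235 lactate and 417 ddH2O reads and RBMX 170 and 261, both among the densest windows of the list. HNRNPK had the lowest ratio, with 3 and 21 reads, and NUDT21 the highest, with 2 and 0 reads. Of 17 genes for nuclear speckle proteins, which share their body with MALAT1, 12 had a merged peak, with a median of 0.34 under MAnorm (1 higher, 1 lower) and -0.76 per IP depth (1 higher, 4 lower). SRSF11 (1090 and 1865 reads), RBM25 (811 and 2122) and PNN (660 and 821) had the densest windows, SRSF3 (6 and 52) the lowest ratio and U2AF2 (4 and 1) the highest.

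Of the genes around MALAT1 and NEAT1 on chromosome 11, 0 had a ratio above theirs under MAnorm and 1, KCNK7, had one per IP depth. MALAT1 and NEAT1 were past 2-fold under MAnorm, as were 7.74% of all genes, so nothing particular to the neighbours is read from the 0. Of 17 neighbours, 14 had a merged peak, with a median of -0.13 under MAnorm (0 higher, 2 lower) and -0.94 per IP depth (0 higher, 7 lower). RELA had 288 and 718 reads and FAM89B 145 and 250, while TIGD3 (1 and 13) had the lowest ratio and KCNK7 (5 and 2) the highest. Of 10 abundant mRNAs, 5 had a merged peak, with a median of 0.09 under MAnorm (0 higher, 1 lower) and -1.13 per IP depth (0 higher, 3 lower). EEF2 had 2265 and 4867 reads, TUBA1B 924 and 2293 and FTL, the highest ratio, 996 and 1682, while EEF1A1 had the lowest with 10 and 29. ACTB, GAPDH, TPT1, FTH1 and TMSB10 had no peak.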

How the data were processed

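Per the submitters' processing notes, the authors trimmed reads with fastp 0.20.1, aligned them with HISAT2 2.1.0, called peaks of each IP library against its own input with MACS2 2.2.7.1 and annotated them with HOMER 4.11.1. The notes also name bedtools 2.29.2 and DiffBind. Each deposited peak has the authors' fold enrichment (a ratio, IP pileup plus 1 over local input level plus 1, after the deeper library was scaled down), a Poisson −log10 p and a q-value, the adjusted p-value of the peak caller. For each merged peak the authors deposited a signal per IP library, the MAnorm read density (reads plus 1 per kb of a window of 2000 bases, rescaled). The deposited M, A and P columns hold the authors' own comparison and were not used.

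Reads were recovered by undoing the MAnorm line in mean log2 density (slope 0.169, intercept -0.204), and 99.999% of 116484 windows were whole within 0.01 of a read in both libraries. IP pileups and input levels solve the fold and −log10 p together, which succeeded for 99.9% of peaks in each list at a relative tolerance of 5e-05. They and the library depths assume that both peak calling runs used the same fragment length and genome size. Both steps were tested on simulated data. Intervals are 95% Wilson for shares, exact Poisson for pileups and exact conditional binomial for ratios. Gene spans came from RefSeq (GRCh38.p14), on whose spans 97.2% of 116147 protein-coding peak positions fell.

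MALAT1, NEAT1 and all lists were chosen with earlier results of these data known. Named genes were MALAT1 and NEAT1 with every merged peak, the markers, and in each list up to 3 members with the densest windows and the pair with the lowest and highest MAnorm ratio. They also were the 5 genes nearest in ratio among those in the top 1 percent by density. The 5 long noncoding RNA genes with the most peaks per list were named too. So were genes overlapping a MALAT1 or NEAT1 window, and FAUP4, which held peaks between MALAT1 and NEAT1. Genes without a peak were named among the other long noncoding RNAs, the abundant mRNAs and the markers. MT-RNR2, ATF4, RPL35, TRIM66, CPSF6 and NONO were named after their values were seen. Alternatives covered the fold (at least 4), the q-value (below 0.05), the gene span, a fold over 4, 20 reads as a minimum, the scaling and the share's denominator. Scaling by IP depth and no scaling were added after seeing the data, as were the comparisons by input level and by density. No test was run. The software was matplotlib 3.10.9, scipy 1.17.1 and pandas 2.3.3 with numpy 2.4.6 under Python 3.11.15.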

Additional observations from a re-analysis of the deposited data

How the results depend on the processing

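No paired analysis was possible, since 1 IP library and 1 input library stand for a condition, and for the same reason no library could be left out in turn. With a fold over input of at least 4, MALAT1 had 0 peaks and 0 covered bases with lactate and 0 peaks and 0 bases with ddH2O, and NEAT1 had 1 ddH2O peak. The MALAT1 window passed 2-fold in 0 of 1 cases under scaling by all window sums and in 0 of 1 per IP depth. With a fold over 4 required, 1 NEAT1 window passed, that of the peak called with lactate alone. The log2 ratio of the densest MALAT1 window was 1.39 with the window sums outside MT-RNR2 and MALAT1, 1.33 with the median window ratio, 0.50 with all window sums, 0.51 per IP depth and 0.53 without scaling. For NEAT1 these values were 1.40, 1.34, 0.51, 0.52 and 0.54. Without MT-RNR2 the MALAT1 shares were 6.25% and 2.48% and the NEAT1 shares 0.0398% and 0.0145%, lactate first. The other 30 values stayed within 1.5 times the reported count, or within the counting interval of a share. Among them, NEAT1 had 2 windows past 2-fold instead of 3 under all window sums and per IP depth, and 1658 ddH2O bases instead of 1983 at a fold of at least 4.

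Without replicates or a control antibody, differences between conditions and between single libraries cannot be told apart. Peaks mark stretches recovered beyond input and do not locate m5C. The rescaling of MALAT1 rests on a line extended past almost all other windows. Reads of MALAT1 and TALAM1, and of NEAT1 and MIR612 in the window of the last NEAT1 peak, cannot be told apart. Short and long NEAT1 reads share the first 4 kb, where no peak was called in either list.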

Other observations

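The 52197 bases between NEAT1 and MALAT1 held 3 lactate peaks, with folds over input from 3.65 to 4.28, and 11 ddH2O peaks, with folds from 2.43 to 12.7. Of the lactate peaks, 2 lay in the pseudogene FAUP4 and 1 was intergenic by the authors' annotation. The authors' q-value was below 0.05 for 3 of the lactate peaks and 6 of the ddH2O peaks. The stretch had 11 merged windows, which held at most 52 lactate and 36 ddH2O reads. Their log2 ratio of lactate over ddH2O had a median of -0.60 under MAnorm (-1.56 to 1.07), with 2 windows more than 2-fold higher and 4 lower. Per IP depth the median was -0.70 (-1.61 to 0.65), with 0 higher and 5 lower. Over all 116484 merged windows the median was -0.50 under MAnorm, with 13.9% more than 2-fold higher and 38.6% lower. Per IP depth it was -0.82, with 11.9% higher and 46% lower. The median of the stretch lay near these medians on both scales, and nothing particular to the stretch is read from its counts.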
